A study of Mus musculus with 4 samples.

Results

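Prlr encodes the prolactin receptor, a single-pass membrane protein of the class I cytokine receptor family. Its single row (ENSMUSG00000005268) among 32285 gene features was followed across 4 libraries and across the cell types within them. The gene was picked because its counts were far higher in the library labelled Mll3/4 deleted than in the others, so its level there is a description and carries no test. Single cells of Kit+ mouse bone marrow of the CD45.2 type were profiled 10 weeks after transplantation, with transcripts and antibody-bound surface proteins counted together. Besides the control there was a group deleted for Mll3, a group deleted for Mll4 and a group deleted for both (Mll3/4), with 1 library each. Mll3 and Mll4 are the products of Kmt2c and Kmt2d, histone methyltransferases that act at enhancers. The labels do not give the strain, the deleting Cre or its promoter, the number of animals, the host or what the 2 hashtag antibodies mark.

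Prolactin is a pituitary hormone best known for mammary development and milk production. Binding of prolactin or a placental lactogen pairs receptor chains, activates the bound kinase Jak2 and leads to phosphorylation of Stat5a and Stat5b. The interleukin-7 receptor of B-cell progenitors, encoded by Il7r, belongs to the same receptor family and also signals through Stat5.

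After filtering, 5350 to 7146 cells per library were kept, with a median of 5142 to 16963.5 UMIs (unique molecule counts) per cell, lowest in the Mll4-labelled library. Libraries shared 9 to 24 cell barcodes per pair, at most 0.290% of the smaller library. Kmt2c was at 47.9 CPM (UMIs of the gene scaled to a common total) in control, 27.2 in the Mll3-labelled, 59.2 in the Mll4-labelled and 34.8 in the Mll3/4-labelled library. Kmt2d was at 25.8, 21.6, 25.0 and 24.7 CPM in that order. Within the B-cell progenitor-like class described below, Kmt2d was at 40.2 CPM (33.6 to 47.8) in control, 25.3 (19.9 to 31.9) in the Mll3-labelled, 16.8 (6.18 to 36.7) in the Mll4-labelled and 24.7 (23.6 to 25.9) in the Mll3/4-labelled library. Over all cells the Mll4-labelled interval overlapped that of control, and so it did within the class, where it rests on 6 UMIs. Within the class the Mll3- and Mll3/4-labelled levels lay below control. The deleted exons are not given and the counts come from 3′ ends, so this reads neither for nor against the label, and directions drawn for Mll4 rest on it. Ddx3y, a Y-linked gene, was at 32.3 CPM in the Mll4-labelled library and had 0 counts in the other 3, so a difference of sex between the mice goes with that label. Every interval printed here is a 95% interval that covers counting error only.

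In mm10 (GRCm38) Prlr lies on chromosome 15, from 10177238 to 10349180 on the plus strand, per GENCODE M21. The annotation gives it 12 transcripts and 15339 exonic bases, of which 203 (1.32%) also lie in exons of Gm21973, a gene with no row in the matrices. RefSeq places 3 transcription start windows in Prlr on GRCm38.p6, at chr15:10176988-10177287, chr15:10223656-10223955 and chr15:10293401-10293700, all on the plus strand. Il7r, on the same chromosome, has 1 window at chr15:9529827-9530126 on the minus strand. These 4 windows of 300 bases, most of it before the start, are shown because the 2 receptor transcripts varied together in the Mll3/4-labelled cells described below. Capitals mark the matches to the STAT motif TTCNNNGAA and to the E-box CAGCTG, searched on both strands.
Prlr start 1: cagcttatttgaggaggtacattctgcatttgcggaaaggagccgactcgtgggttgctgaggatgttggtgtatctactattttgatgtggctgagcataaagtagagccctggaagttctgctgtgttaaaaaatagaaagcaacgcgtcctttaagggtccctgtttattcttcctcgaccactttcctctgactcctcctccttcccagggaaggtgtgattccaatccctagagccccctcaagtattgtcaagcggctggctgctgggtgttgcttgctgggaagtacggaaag
Prlr start 2: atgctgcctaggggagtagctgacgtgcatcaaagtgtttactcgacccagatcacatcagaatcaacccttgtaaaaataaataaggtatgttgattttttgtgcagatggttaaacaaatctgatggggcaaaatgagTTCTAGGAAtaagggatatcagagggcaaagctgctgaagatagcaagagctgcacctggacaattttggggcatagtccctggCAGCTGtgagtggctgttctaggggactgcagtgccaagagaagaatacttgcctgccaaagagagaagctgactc
Prlr start 3: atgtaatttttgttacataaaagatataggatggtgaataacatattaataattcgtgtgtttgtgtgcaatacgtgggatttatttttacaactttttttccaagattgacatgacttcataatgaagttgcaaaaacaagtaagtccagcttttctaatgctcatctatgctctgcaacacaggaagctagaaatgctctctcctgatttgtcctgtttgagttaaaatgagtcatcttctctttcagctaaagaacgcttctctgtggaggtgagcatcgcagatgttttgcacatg
Il7r start 1: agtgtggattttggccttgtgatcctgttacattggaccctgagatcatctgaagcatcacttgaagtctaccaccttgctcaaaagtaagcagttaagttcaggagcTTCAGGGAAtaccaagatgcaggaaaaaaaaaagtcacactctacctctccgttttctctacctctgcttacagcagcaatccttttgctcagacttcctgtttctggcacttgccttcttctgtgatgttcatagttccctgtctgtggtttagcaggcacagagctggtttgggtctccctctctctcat
A STAT match was found in Prlr start 2 and in the Il7r window, and an E-box match only in Prlr start 2 among the 4. Over 32851 RefSeq windows of the same length, 8.30% held the STAT motif and 16.3% the E-box. A match is a string of letters and no sign of binding, and counts from 3′ ends do not tell which of the 3 starts was used.

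Prlr was almost silent in 3 libraries and abundant in the fourth. In control, 24 Prlr UMIs were found in 22 of 7146 kept cells, or 0.156 CPM (0.1001 to 0.232). The Mll3-labelled library had 23 UMIs in 21 of 5860 cells, 0.169 CPM, and the Mll4-labelled library 8 UMIs in 7 of 5350 cells, 0.244 CPM. In the Mll3/4-labelled library, 27323 UMIs lay in 5511 of 6917 cells, 351.8 CPM (347.7 to 356.0). The log2 ratio to control was 11.14 (10.56 to 11.78) for the Mll3/4-labelled library, while the 2 single deletions gave 0.11 (-0.78 to 1.002) for Mll3 and 0.64 (-0.72 to 1.85) for Mll4, intervals that hold 0. With log2 of CPM plus 1, Prlr ranked 2 of 15158 genes by this ratio, where 12% of genes were at least 2-fold higher and 11.7% at least 2-fold lower.

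Much of that ratio lay in which cells were present. Cells were clustered with Prlr left out, and clusters were named from marker genes. B-cell progenitor-like cells, which carry Ebf1, Pax5, Cd79a and the surrogate light chain genes, gave 2.07% of the control UMIs and 97.7% of the Mll3/4-labelled ones. This is a log2 difference of 5.56 by itself. Within the class, the control level of Prlr was 6.29 CPM (20 UMIs, 471 cells, 3.84 to 9.71). With Mll3 deleted it was 5.90 CPM (17 UMIs, 369 cells, 3.44 to 9.45). The Mll4 label had 11.2 CPM (4 UMIs, 143 cells, 3.06 to 28.7), and the Mll3/4 label 359.5 CPM (27277 UMIs, 6830 cells, 355.2 to 363.8). The first 3 overlap and the fourth lies above all of them. By the Mll3/4-labelled ratio to control in log2 of CPM plus 1, Prlr ranked 10 of 13456 genes within the class. There 9.45% of genes were at least 2-fold higher and 7.39% at least 2-fold lower. Within the class the Mll3/4-labelled library was 57.2-fold (37.0 to 93.6) above control, a log2 ratio of 5.84 (5.21 to 6.55), and 5.81 (5.37 to 6.29) above the other 3 libraries summed. The log2 ratio was -0.09 (-1.11 to 0.92) for the Mll3-labelled and 0.84 (-1.17 to 2.41) for the Mll4-labelled library, which leaves room for folds of 0.462 to 1.89 in the first and 0.444 to 5.33 in the second. With the class taken as cells with at least 2 B-cell progenitor markers, the Mll4 value was 1.54 (0.05 to 2.84, 7 UMIs), an interval that leaves out 0.

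The class name rests on the markers and not on surface B220. All 10 B-cell progenitor markers were detected in the class in every library, and their summed level was 10682 CPM for control against 10512 CPM for Mll3/4. Il7r is 1 of these 10. None of the 10 was among the 10 leading genes of the Mll3/4-labelled clusters, where Prlr itself came first in 4 of 5, so the name there rests on the mean marker level alone. The median B220 antibody count was 193 per cell in control, 172 and 166 in the single deletions and 13 in the Mll3/4-labelled library. CD117, the Kit protein, went the other way, with medians of 55, 58, 81 and 256. Markers of neutrophils, another cell type, summed to 2433 CPM in the class in control, 1790 and 6327 in the single deletions and 78.1 in the Mll3/4-labelled library. The part of these differences in the Prlr level, and in the pathway lists followed below, was not tested.

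**Figure D1:**
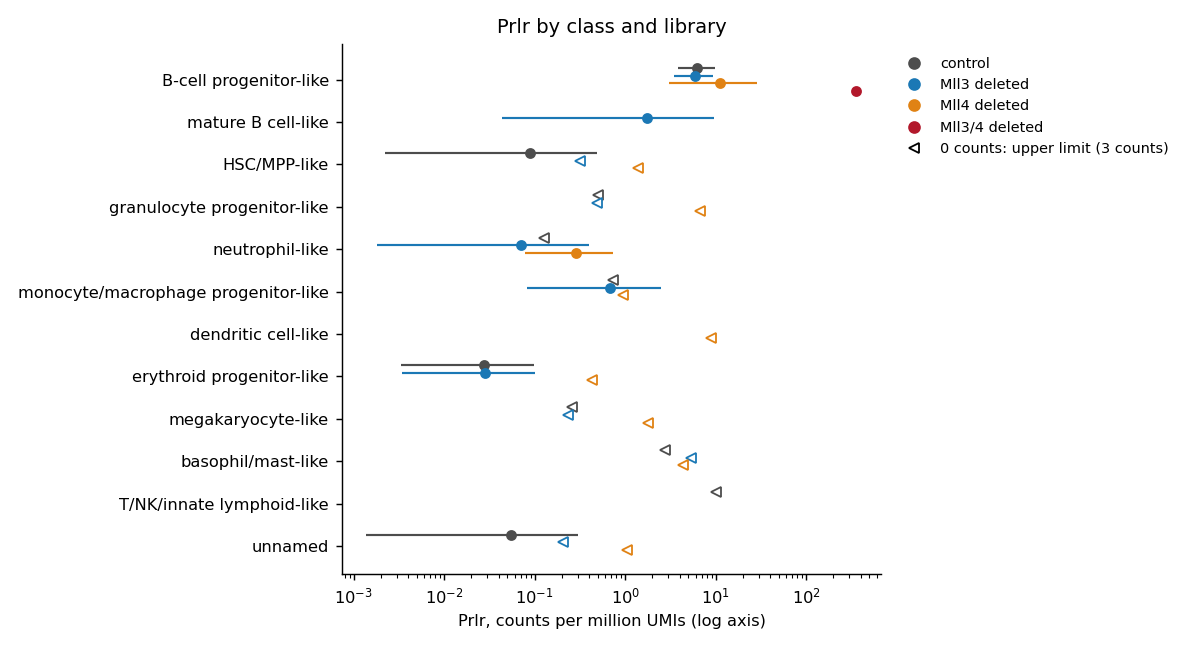
Prlr level in CPM (log axis) for each class (rows) with at least 50 cells in a library (colours). Filled points are measured levels with 95% Poisson intervals for counting error, and open triangles are upper limits where no Prlr UMI was found. The Mll3/4-labelled B-cell progenitor-like cells, at 359.5 CPM, stand apart from all other points.

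The B-cell progenitor-like class was also where the few Prlr UMIs of the other libraries lay. It held 20 of 24 in control (83.3%, 62.6 to 95.3%), 17 of 23 in the Mll3-labelled library (73.9%, 51.6 to 89.8%) and 4 of 8 in the Mll4-labelled library (15.7 to 84.3%). The rest of the control library had 4 UMIs in 6675 cells, 0.0266 CPM. Prlr was thus detected in control B-cell progenitor-like cells above the level of the other control cells.

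Among classes with at least 50 cells in a library, ordered by level, the Mll3/4-labelled B-cell progenitor-like cells came first at 359.5 CPM and the same class in the Mll4-labelled, control and Mll3-labelled libraries followed at 11.2, 6.29 and 5.90 CPM. The mature B cell-like cells of the Mll3-labelled library came next at 1.74 CPM, from 1 UMI in 236 cells, an interval that overlaps those of the 3 before it. Below 1 CPM lay the monocyte/macrophage progenitor-like cells of the Mll3-labelled library (2 UMIs in 142 cells, 0.680 CPM) and Mll4-labelled neutrophil-like cells (4 UMIs in 3 of 2687 cells, 0.285 CPM). Control HSC/MPP-like cells, the stem and multipotent progenitors, had 1 UMI in 726 cells, 0.0875 CPM. Erythroid progenitor-like cells, the deepest sampled class, had 2 UMIs in 1766 control cells, 0.0273 CPM, and 2 UMIs in the Mll3-labelled library, 0.0280 CPM. No Prlr UMI was found in the granulocyte progenitor-like, megakaryocyte-like or basophil/mast-like cells of these 3 libraries. For the 646 control megakaryocyte-like cells that allows up to 0.464% of cells with a UMI, taking 3 counts of the total as the limit. Intervals of the B-cell progenitor-like class in each library lay above those of the classes named here under 1 CPM, and the latter overlapped among themselves.

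Cells of the Mll3/4-labelled library outside the class were few. Of 87, 8 carried Prlr, with 46 UMIs and 25.9 CPM (19.0 to 34.6), against 359.5 CPM in the class. They were 4 T/NK/innate lymphoid-like cells with 1, 2, 6 and 7 UMIs, 2 neutrophil-like cells with 3 and 14, a monocyte/macrophage progenitor-like cell with 12 and an erythroid progenitor-like cell with 1. The cell with 12 UMIs and the one with 3 were positive for both hashtags. Doublets and free RNA as sources of the others were not tested.

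The difference between libraries was also present at equal depth. With every cell thinned to 2000 UMIs, a Prlr UMI was found in 8 of 441 control B-cell progenitor-like cells (1.81%), 2 of 351 in the Mll3-labelled library (0.570%) and 2 of 74 in the Mll4-labelled library (2.70%). In the Mll3/4-labelled library it was found in 3063 of 6747 cells, 45.4% (44.2 to 46.6%). Before thinning the shares were 3.82% for control and 80.6% for Mll3/4, at median depths of 4389 and 9936 UMIs. All other cells of the same libraries, which should mostly lack the gene, gave 0 of 6609 in control and 2 of 86 (2.33%) in the Mll3/4-labelled library at the same 2000 UMIs, from median depths of 16269 and 18804. The thinning left out 30 control, 18 Mll3-labelled, 69 Mll4-labelled and 83 Mll3/4-labelled cells of the class. The share of the class in the Mll3/4-labelled library therefore lay well above what the other cells of the same library showed.

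**Figure D2:**
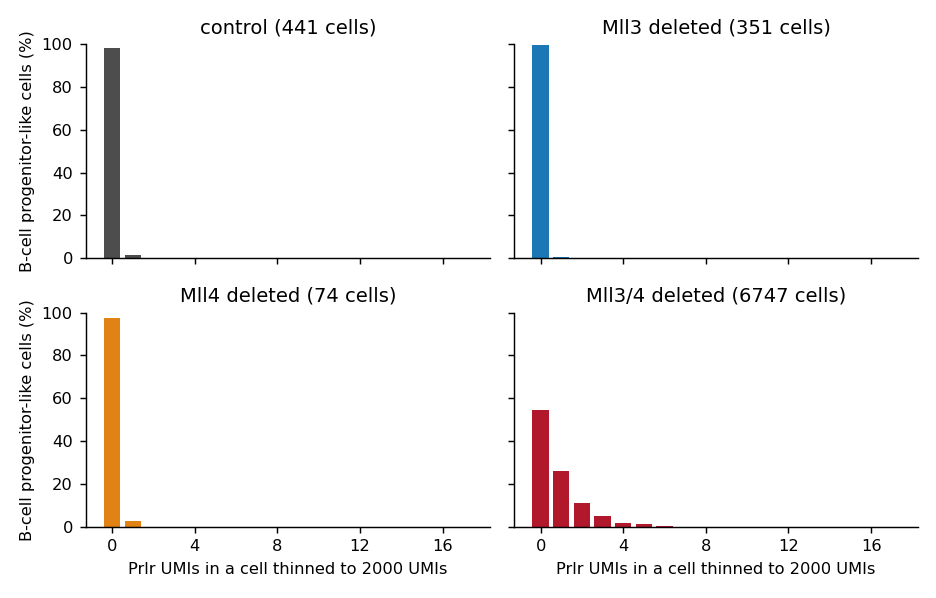
Share of B-cell progenitor-like cells (vertical axis, percent) by number of Prlr UMIs in a cell thinned to 2000 UMIs (horizontal axis), 1 panel per library. In the Mll3/4-labelled library 54.6% of cells had 0, 25.8% had 1 and 11.2% had 2, while over 97% of the cells in each other library had 0.

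Most Mll3/4-labelled cells of the class carried Prlr, and they differed among themselves by more than counting error. At 2000 UMIs the counts in the Mll3/4-labelled class spread over 0 to 17, with a variance 1.76 times the mean. Counting error alone gives a ratio of 1. At 5000 UMIs, which leaves 6136 cells, 68.2% had a UMI and the ratio was 2.59. The highest count in an unthinned cell was 37, and no cell of the other 3 libraries had more than 2.

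Only a handful of cells crossed between the clusters of the 2 kinds of library. The Mll3/4-labelled class fell into 5 clusters that held 1 control cell and 3 Mll4-labelled cells. That control cell had 2 Prlr UMIs among 2779, and the 3 Mll4-labelled cells had none. Conversely, 5 Mll3/4-labelled cells lay in the B-cell progenitor-like clusters of the other libraries, with 1 Prlr UMI among 48537 UMIs, or 20.6 CPM (0.522 to 115). The interval of these 5 cells lies below the level of the other Mll3/4-labelled cells of the class and overlaps that of control. Which cluster a cell fell into was set by genes that differ between the libraries, so these cells were chosen by their likeness to control cells.

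In control, Prlr made up a larger share of the RNA in the cluster with few dividing cells than in the cycling one, but not more UMIs per cell. Cells of a low-UMI cluster with Rag1 and Vpreb2, genes of V(D)J recombination and of the surrogate light chain, among its 10 leading genes were at 9.52 CPM there (12 UMIs, 316 cells). Those of a cycling cluster, with G2/M genes at 7556 CPM, were at 3.13 CPM (6 UMIs, 154 cells), a log2 difference of 1.605 (0.08 to 3.30). The mean was 0.0380 Prlr UMIs per cell in the first and 0.0390 in the second, with a UMI in 3.48% and 3.90% of cells, at median depths of 3415.5 and 11115.5 UMIs. The Mll3-labelled library had 8.30 and 4.46 CPM in the same 2 clusters, and the Mll4-labelled library 24.4 and 4.36 CPM, from 3 UMIs and 1. The Poisson intervals of the 2 clusters overlapped in all 3 libraries, control included. Taken against either control cluster, the Mll3/4-labelled class was higher, by log2 ratios of 5.24 (4.43 to 6.19) against the low-UMI cluster and 6.84 (5.72 to 8.29) against the cycling one.

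The 5 clusters of the Mll3/4-labelled class all had high Prlr but were not alike. Prlr was at 451.9 CPM in cluster 24 (1920 cells) and 434.4 CPM in cluster 21 (1747 cells), where G2/M genes summed to 243 and 293 CPM. It was at 390.9 CPM in cluster 25 (508 cells, G2/M 5833 CPM) and 315.9 CPM in cluster 23 (1307 cells, G2/M 8888 CPM). The lowest was cluster 22, at 226.6 CPM (1343 cells), with G2/M genes at 512 CPM and S phase genes at 1990 CPM, the latter against 1107 CPM in cluster 24. Levels differed beyond counting error between clusters 21 and 25 and between each next pair down the order, while the intervals of clusters 24 and 21 overlapped. S phase genes were highest in cluster 23, at 2121 CPM, so the order of Prlr over the clusters followed neither list. Il7r followed the same broad order, at 789, 1065, 771, 562 and 397 CPM in clusters 24, 21, 25, 23 and 22.

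Both hashtags of the Mll3/4-labelled library carried the signal. Cells of the class positive for Hashtag1 only were at 369 CPM (363 to 375, 3672 cells) and those positive for Hashtag2 only at 344 CPM (338 to 351, 2979 cells). The 132 cells positive for both were at 417 CPM. If the hashtags mark animals, which the labels do not say, both had high Prlr. They are parts of 1 library and were not treated as replicates.

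Prlr as a share of a cell's RNA was lower in cells with more RNA. Over quartiles of the class by UMIs per cell it was at 519, 455, 360 and 275 CPM from the lowest to the highest quartile. The mean number of Prlr UMIs in a cell went the other way, at 2.62, 3.84, 4.23 and 5.28. Prlr counts thus grew with total counts but less than in proportion.

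**Figure D3:**
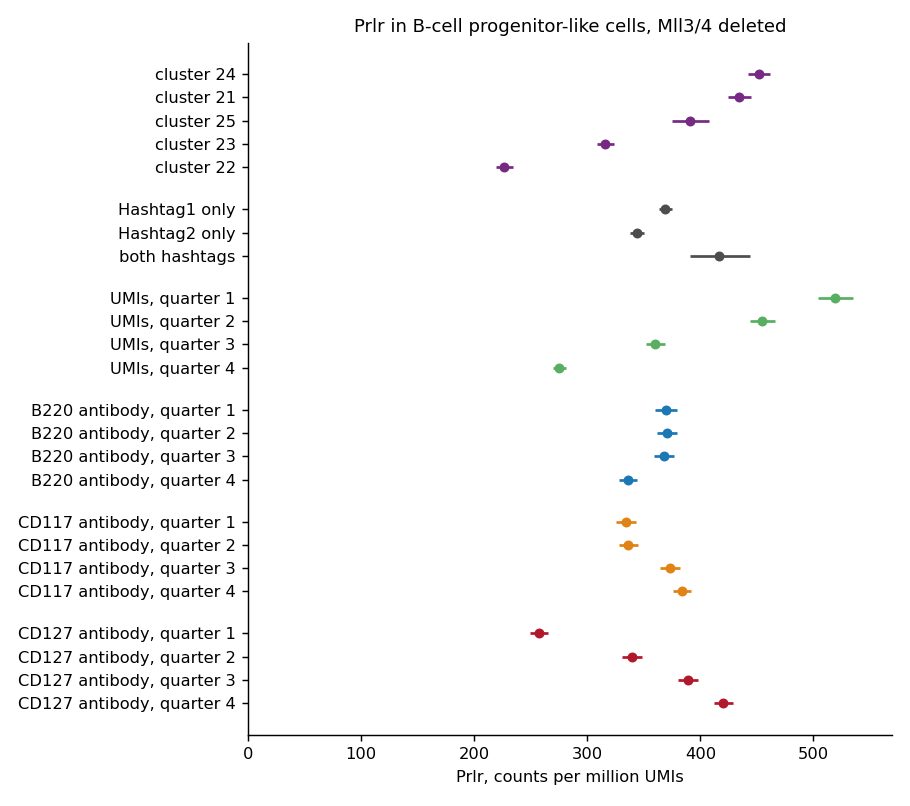
Prlr level (horizontal axis, CPM) in parts of the B-cell progenitor-like class of the Mll3/4-labelled library, with 95% Poisson intervals. Rows are the 5 clusters, the hashtag groups and quartiles of the cells by UMIs and by B220, CD117 and CD127 antibody counts. Clusters, UMIs and CD127 separate the levels most, from 226.6 to 519 CPM.

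Surface proteins split the class unequally. Over quartiles by B220, a protein tyrosine phosphatase isoform of B-lineage cells, Prlr was at 370, 370, 368 and 336 CPM. Over quartiles by CD117 it was at 334, 336, 373 and 383 CPM. Over quartiles by CD127, the interleukin-7 receptor protein itself, it was at 257, 339, 389 and 420 CPM, with median antibody counts of 16, 36, 57 and 96. CD127 was thus the antibody of the 3 along which Prlr differed most, and Prlr was higher where the receptor protein was higher. The median CD127 count in the class was 32, 40, 57 and 45 per cell in the control, Mll3-, Mll4- and Mll3/4-labelled libraries, against 1 to 4 in other cells.

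The CD127 relation held inside each split examined. Within the 4 UMI quartiles, from the lowest up, Prlr in the lowest and highest CD127 quartiles was at 355 and 679, 316 and 591, 248 and 450, and 186 and 373 CPM. With depth held in this way the gap was larger in proportion than in the class as a whole. Within Hashtag1-only cells the 2 levels were 231 and 444 CPM, and within Hashtag2-only cells 284 and 392 CPM. Within clusters 21 to 25 in order they were 323 and 476, 178 and 281, 225 and 393, 296 and 572, and 302 and 489 CPM. In none of these 11 pairs did the intervals overlap.

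Il7r transcripts went the same way as the protein, but this split was not made within UMI quartiles. Over the UMI quartiles above, from the lowest up, Il7r was at 1200, 935, 693 and 477 CPM, falling as Prlr did. The part of depth in the relation to Il7r transcripts was not tested. In cells thinned to 5000 UMIs, Prlr was at 189 CPM in the 926 cells with no Il7r UMI and at 289 CPM in the 1775 cells with 1 to 2. It was at 414 CPM in the 1811 cells with 3 to 5 and at 595 CPM in the 1624 cells with 6 or more. The share of cells with a Prlr UMI went from 47.8% to 79.9% over the same steps. Over these 6136 thinned cells, Pearson r between the log counts of Prlr and Il7r was 0.33. The splits by CD127, UMIs and Il7r were chosen after earlier values had been seen, and the cells of 1 library share its handling.

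**Figure D4:**
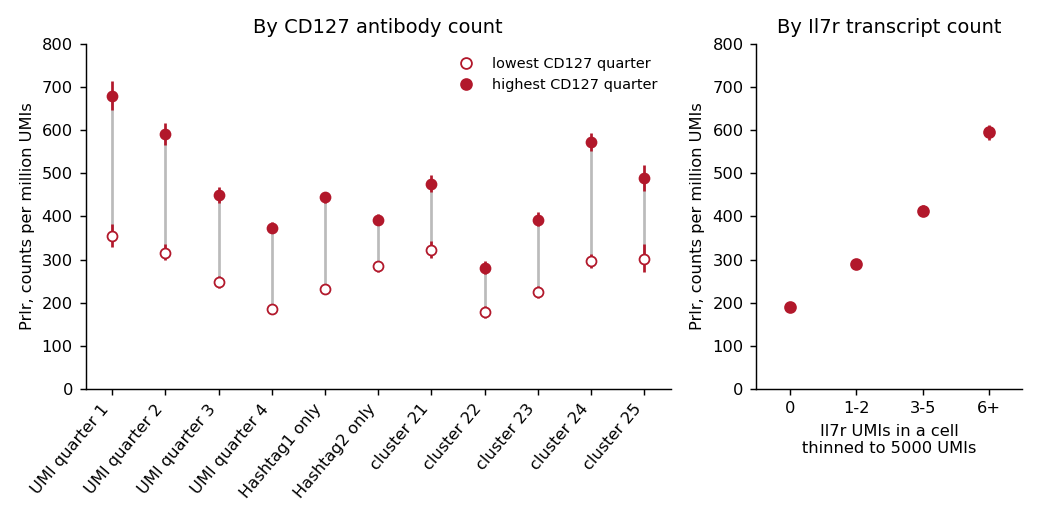
Prlr level (vertical axes, CPM) in the Mll3/4-labelled B-cell progenitor-like cells with 95% Poisson intervals: left, the lowest (open) and highest (filled) quartile by CD127 antibody within UMI quartiles, hashtags and clusters; right, by number of Il7r UMIs in cells thinned to 5000 UMIs. The filled point is above the open one in all 11 pairs, and the level goes from 189 to 595 CPM over the Il7r steps.

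Other genes were compared between the 745 cells of the class with at least 5 Prlr UMIs and the 1989 with none, all thinned to 5000 UMIs. Of 8458 genes with at least 100 counts over the 2 sets together, 0.946% were at least 2-fold higher in the Prlr-rich cells. At least 2-fold lower were 0.272%, and the median log2 difference was 0.14. Il7r was at 1256 against 564 CPM, a log2 difference of 1.15 and rank 34 of the 8458. The largest differences were Colec12, a scavenger receptor (25.5 against 8.35 CPM), Alcam, an adhesion molecule (41.3 against 14.0 CPM), 1700027J07Rik, Tert, the catalytic subunit of telomerase, Ly6c1 and Tifa, with log2 differences from 1.504 to 1.41. At the other end were Bok, a Bcl2 family member (3.76 against 17.999 CPM, -1.997), and Ccnd2, cyclin D2 (14.8 against 38.7 CPM, -1.33).

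Few members of the fixed lists passed 2-fold between the Prlr-rich and Prlr-free cells. A member counted as measured here by the same filter of 100 counts. Of the class I cytokine receptors 1 of 8 measured was higher, Il7r, and of the signal transducers 1 of 15, Gab2. Of the inhibitors 0 of 7 passed, and of the STAT5 target genes 0 of 7 were higher and 1, Ccnd2, was lower. The median log2 differences of these 4 lists were 0.08, 0.31, 0.42 and 0.19, against 0.14 over all genes. Among genes of recombination, none of which passed 2-fold, Dntt, the terminal transferase, was at 1032 against 545 CPM (0.92 on the log2 scale), Rag1 at 643 against 362 CPM (0.83) and Rag2 at 190 against 116 CPM (0.71). Gab2, an adaptor of cytokine receptors, was at 19.1 against 8.75 CPM (1.04). The STAT5 target gene Pim1, a kinase, was at 80.8 against 49.9 CPM (0.69), and the feedback inhibitors Socs2 and Cish differed by 0.55 and 0.51, all under 2-fold. Of the 15 S phase genes none passed 2-fold and their median difference was -0.18, with Tyms the lowest at -0.91. For the 15 G2/M genes the median was 0.42. Median depth before thinning was 8659 UMIs in the Prlr-rich and 11548 in the Prlr-free cells, and median CD127 was 57 and 40.

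Markers of other cell types were summed in both sets. The highest sums were those of 5 plasma cell markers, at 1305 CPM in the Prlr-rich against 1024 in the Prlr-free cells, and of 8 lymphoid-primed progenitor markers, at 1290 against 808 CPM. Dendritic cell markers summed to 453 against 446 CPM and HSC/MPP markers to 170 against 133 CPM. Other lists were lower. All 8 megakaryocyte markers were at 0 in the Prlr-rich cells and 7 of them in the Prlr-free cells. Neutrophil markers summed to 85.6 CPM in the Prlr-rich against 68.1 in the Prlr-free cells. Stroma and endothelium markers summed to 38.4 against 22.9 CPM. Of these 8, Col1a1, Col3a1, Cxcl12, Pdgfra and Cdh5 were at 0 among the Prlr-rich cells, and 3 were at 0 among the Prlr-free cells. T/NK/innate lymphoid markers summed to 19.3 against 14.5 CPM. Of these 8, Cd3e, Cd3d and Trbc1 were at 0 in the Prlr-rich cells, and 4 were at 0 in the Prlr-free cells. The Prlr-free set held more cells, so counts of markers at 0 are not at equal depth. The 10 B-cell progenitor markers, Il7r among them, summed to 13643 against 10035 CPM. The part of these sums in the differences between the 2 sets was not tested.

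The signalling pathway of the receptor was followed through fixed lists within the B-cell progenitor-like class, in the Mll3/4-labelled library against control. A gene counted as measured with at least 20 UMIs in either library, and as higher or lower past 2-fold in CPM plus 1. Of 13456 genes measured, 9.45% were higher and 7.39% lower, and the median log2 ratio was 0.02. Because the Mll3/4-labelled class held 6830 cells and the control class 471, many genes were measured through the Mll3/4-labelled library alone.

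No transcript of a ligand was measured. Prl, Prl2c2, Prl2c3, Prl3d1, Prl7d1 and Prl8a2 had 0 counts in the class in both libraries. Gh, growth hormone, had 9 UMIs in control and 0 in the Mll3/4-labelled class.

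Among 24 other class I cytokine receptors, 11 were measured, of which 3 were higher and 1 lower, with a median of 0.33. Il7r had a control level of 264.6 CPM, levels of 248.3 and 320.0 CPM under the Mll3 and Mll4 labels and one of 703.3 CPM under Mll3/4, a log2 ratio to control of 1.41 (1.31 to 1.51). Il21r was at 13.2 and 42.5 CPM in control and the Mll3/4-labelled library, and Il4ra at 3.77 and 11.4 CPM. Il4ra had 12 UMIs in control and 867 in the Mll3/4-labelled class. It was thus measured only through the library where it was higher, and the count of 3 higher rests in part on that filter. Il6st, the shared chain of the interleukin-6 family, was lower at 10.9997 and 4.72 CPM. Crlf2, the receptor chain for thymic stromal lymphopoietin that pairs with Il7r, differed by 0.33 and Il2rg, the common gamma chain, by 0.10, with Il3ra at 0.18, Csf2ra at -0.28 and Il11ra1 at 0.59. The Il7r ratio was much smaller than that of Prlr, 5.63 on the same scale. Il2rb, Il5ra and Il9r had 0 counts in both.

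All 18 signal transducers were measured, with 0 higher, 3 lower and a median of -0.18. Jak2, the kinase bound to the prolactin receptor, was at 18.5 CPM in control against 25.1 CPM in the Mll3/4-labelled class (0.42), and Jak1 at 119 and 192 CPM (0.68). Stat5a was lower, at 20.7 and 9.51 CPM (-1.05), while Stat5b, named beside it outside the rule, was at 20.7 and 15.4 CPM (-0.41). Jak3, which pairs with the common gamma chain, was lower at 11.6 and 2.82 CPM (-1.72), and Vav1, a guanine nucleotide exchange factor, at 48.4 and 15.4 CPM (-1.59). Tyk2 and Stat3, at -0.53 and -0.06, did not pass 2-fold.

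Of the 10 inhibitors, 2 were higher and 2 lower, with a median of -0.05. The higher members were Cish, at 11.6 and 25.6 CPM (1.08), and Socs2, at 84.5 and 211 CPM (1.31), both feedback genes of STAT5 signalling. Ptpn6, the phosphatase SHP-1, was lower at 49.3 and 7.30 CPM (-2.60), as was Btrc, a ubiquitin ligase subunit that acts on the prolactin receptor, at 35.5 and 15.3 CPM (-1.16). Socs1 and Socs3, at 0.75 and 0.98, and Socs7, Ptpn1 and Ptpn2, at -0.07, -0.11 and -0.32, did not pass.

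Among 15 known STAT5 target genes, 12 were measured, with 1 higher, 5 lower and a median of -0.65. The list gives no direction of regulation for its members, so this count and median are no measure of STAT5 activity. Bcl2l1, which encodes the survival protein Bcl-xL, was higher at 24.8 and 61.03 CPM (1.26). Lower were Pim1, at 120 and 54.4 CPM (-1.13), Ccnd2, at 84.5 and 32.0 CPM (-1.37), Ccnd3, at 456 and 180 CPM (-1.34), Bcl6, at 8.49 and 0.870 CPM (-2.34), and Irf1, at 33.6 and 16.2 CPM (-1.01). Pim2, Bcl2, Mcl1, Ccnd1 and Osm, at -0.02, -0.52, -0.61, -0.70 and 0.01, did not pass. Milk protein genes Csn2 and Wap, the classic targets in mammary gland, and Elf5 had 0 counts in both. Pim1, lower in this comparison, was not lower in the Prlr-rich than in the Prlr-free cells of the Mll3/4-labelled class, as given above.

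**Figure D5:**
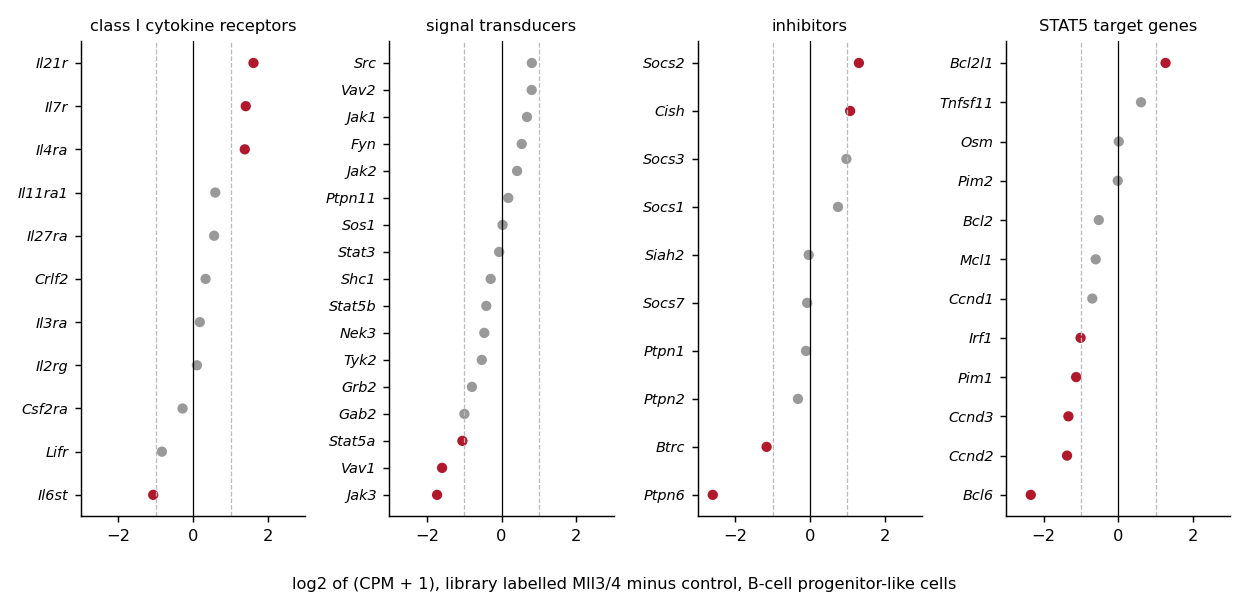
Difference in log2 of CPM plus 1 between the Mll3/4-labelled library and control (horizontal axes) for measured members of 4 lists within the B-cell progenitor-like class, with 1 transducer that did not pass 2-fold not drawn. Red points passed 2-fold (dashed lines) and grey points did not. Receptors, inhibitors and STAT5 target genes have members past both lines, while the transducers past a line, Jak3, Vav1 and Stat5a, are all lower.

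In the single deletions the lists gave few members past 2-fold under the Mll3 label and more under the Mll4 label, named here after their values were seen. In the Mll3-labelled class, where 0.417% of 8869 genes were higher and 1.89% lower, Il11ra1 was higher (2.51 CPM in control and 7.29) and Bcl6 lower (8.49 and 2.08). Il11ra1 rests on 8 UMIs in control and 21 in the Mll3-labelled class, and Bcl6 on 27 and 6. Their log2 intervals without the added 1 were 0.30 to 2.92 and -3.59 to -0.72. Each was measured through only 1 of the 2 libraries, the one where it was higher. In the Mll4-labelled class, of 143 cells and with 8.19% of 8733 genes higher and 8.52% lower, Csf2ra, Il27ra, Vav1, Bcl2, Ccnd2 and Bcl6 were higher. Higher were thus 2 of 8 measured receptors, 1 of 16 transducers, 0 of 8 inhibitors and 3 of 8 STAT5 targets, and 4 transducers were lower. The interval of Il27ra, from 6 UMIs, holds 0. That of Bcl6, from 8 UMIs, was 0.06 to 2.58 without the added 1. Jak3, Tyk2, Sos1 and Vav2 were past 2-fold lower only on the scale of CPM plus 1, from 1, 0, 4 and 0 UMIs. Without the added 1, the log2 intervals of Jak3 (-7.39 to 0.52) and Sos1 (-2.98 to 0.35) hold 0, and the bounds for Tyk2 and Vav2 allow -0.78 and -0.47, short of 2-fold. Bcl6, Ccnd2 and Vav1, lower in the Mll3/4-labelled class, were thus higher in the Mll4-labelled one, and the difference was not tested. Neutrophil markers in the class also summed to 78.1 CPM in the Mll3/4-labelled, 2433 in the control and 6327 in the Mll4-labelled library. The part of this difference in the list values was not tested.

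Genes around Prlr on chromosome 15 were followed to 1 Mb on either side of its start. Of 27 annotated neighbours, 19 were in the matrices and 11 were measured in the class. Past 2-fold, 4 were higher and 0 lower, in the comparison where 9.45% of all genes were higher. Of these 4, Spef2, Rai14 and Amacr had 8, 16 and 7 UMIs in control and were measured only through the Mll3/4-labelled library, so the count says nothing about the region. The higher ones were Il7r, whose start lies 647.06 kb before that of Prlr, Spef2, a sperm flagellar gene (2.51 and 6.15 CPM), Rai14 (5.03 and 12.02 CPM) and Amacr, a racemase of branched-chain fatty acid breakdown (2.1999 and 5.56 CPM). The nearest measured gene downstream, Agxt2, an aminotransferase, had 0 UMIs in control and 23 in the Mll3/4-labelled class, 0.303 CPM, which the control depth could not have shown. Dnajc21 was at 249 and 366 CPM (0.55), Brix1 at 104 and 98.1 CPM, Rad1 at 23.3 and 23.2 CPM and Capsl, next to Il7r, at 42.1 and 35.6 CPM. The 8 neighbours with at least 7 control UMIs had log2 ratios of -0.24 to 1.41, and the highest upper limit among them was 2.66, for Amacr, against 5.84 (5.21 to 6.55) for Prlr. Agxt2 and Adamts12, with 0 control UMIs, and 4930556M19Rik, with 1 (0.33, -2.26 to 5.68), could not be set against Prlr at this depth.

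Genes with a pattern most like that of Prlr were taken from 31 sums of a class in a library with at least 50 cells, by Pearson r of log2 CPM plus 1 over 13835 genes. They were Adgrf1 (r = 0.97), Alpl (0.95), Raet1e (0.94), Gria2 (0.94), Slit1, Enpep, Raet1d, Rragd and Magi1 (0.93 each) and Gjc1 (0.92). The points share libraries and depths, and only 1 of them is from the Mll3/4-labelled library. In the B-cell progenitor-like class, Adgrf1 was at 2.83 CPM in control against 38.2 CPM in the Mll3/4-labelled library, Alpl, alkaline phosphatase, at 20.4 and 160 CPM, and Gria2, a glutamate receptor subunit, at 14.5 and 562 CPM. Enpep, the BP-1 antigen of B-cell precursors, had 31.4 CPM in control, 20.8 with Mll3 and 135 with Mll4 deleted, and 340 CPM in the Mll3/4-labelled library. Like Prlr, each of these 4 genes was under 2 CPM in every sum of another class. Over the 5 clusters of the Mll3/4-labelled class alone the likest gene was Lef1 (r = 0.999 over 5 points), a transcription factor of early lymphoid cells.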

How the data were processed

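Transcripts and antibody tags were counted in 4 libraries made with 10x Genomics 3′ version 3.1 chemistry, per the labels' protocols. Raw UMI counts per gene and barcode were deposited without normalization, made with Cell Ranger 6.1.2 on mm10 per the submitters' processing notes. Of 32285 gene IDs, 32158 were matched in GENCODE M21. Barcodes with at least 500 genes, 1000 UMIs and at most 10% mitochondrial UMIs were kept, and the highest Scrublet scores were removed at 0.8% per 1000 barcodes. Cells were clustered with scanpy 1.11.5 (2000 variable genes without Prlr, 30 components, Leiden resolution 1) and clusters named from fixed markers of 12 classes, with Xist, Y-linked and mitochondrial genes left out. UMIs were summed per class and library and scaled to CPM. With 1 library per group no test was run. CPM has exact Poisson intervals, ratios exact conditional binomial intervals and shares exact Clopper-Pearson intervals. Free RNA was not corrected for.

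The gene, the lists and the markers were chosen with earlier results of these data known, and 1 marker, Azu1, had no row. Named genes were list members past 2-fold and up to 5 others per list in list order, genes within 1 Mb of Prlr, the 10 genes most like it, and, chosen after values were seen, genes that differ with Prlr among Mll3/4-labelled cells. On simulated sums of the B-cell progenitor-like class (Mll3/4-labelled against control), the 2-fold rule recovered 100% of genes changed 4-fold and 42.0% of those changed exactly 2-fold. It called 0.384% and 0.333% of unchanged genes. The changed genes had more control UMIs than some named members, such as Il4ra and Bcl6, so recovery was not measured for those. Only counting error was simulated, so these rates do not cover other differences between libraries. Some list and marker genes are not reported here by name. Alternatives covered the barcode filter, doublets, scaling with edgeR 4.0.16 TMM factors, depth, class definition, pseudocount and fold.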

Additional observations from a re-analysis of the deposited data

How the results depend on the processing

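Within the B-cell progenitor-like class, the log2 ratio of Prlr in the Mll3/4-labelled library to control was 5.45 to 6.26 under the alternatives, from 5.84. The single deletions gave -0.88 to 0.29 for Mll3 and 0.59 to 1.54 for Mll4, inside the counting intervals of the main values. The 1.54, from cells with at least 2 B-cell progenitor markers, has an interval of 0.05 to 2.84 that leaves out 0, unlike the main one. Thinning left 0 UMIs in the Mll4-labelled class, a bound of 1.16, in a random draw other than that behind the shares. Over all kept cells, thinning to 2000 UMIs gave -0.86, -2.70 and 9.31 for the Mll3-, Mll4- and Mll3/4-labelled libraries, and the mean share per cell gave 9.31 for the last. The thinned Mll3 and Mll4 values rest on 4 and 1 UMIs against 9 in control. Their intervals, -3.01 to 0.98 and -8.16 to 0.15, hold 0. Shares of cells with a UMI moved with depth, to 28.5% at 1000 and 68.2% at 5000 UMIs in the Mll3/4-labelled class, 2.38% at 5000 in the Mll3-labelled and 0% of 4 cells in the Mll4-labelled class.

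Counts of list members moved with the settings. With no filter on counts 1 ligand and 5 receptors were lower. At 1.5-fold 2 receptors and 5 transducers were lower, and 3 transducers, 4 inhibitors and 2 STAT5 targets higher. At 3-fold 1 receptor, 0 inhibitors and 0 targets were higher, and 0 receptors, 1 inhibitor and 1 target lower. A pseudocount of 0.1 gave 2 receptors lower and 1 transducer and 2 targets higher, and one of 5 gave 0 receptors and 1 inhibitor lower and 1 inhibitor higher. Trimmed mean scaling left 0 receptors lower. Of the 10 genes with a pattern like Prlr, 0 were shared with those by Spearman correlation and 4 with those from sums of at least 20 cells. The cause of these moves was not tested.

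No paired analysis was possible because each group has 1 library, and for the same reason no replicate was left out. The depth of the control class, 471 cells with 20 Prlr UMIs, and of the Mll4-labelled class, 143 cells with 4, limits all ratios, and a library, its animals and its genotype cannot be told apart.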
